A study of Mus musculus with 18 samples.

Results

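The array carried 80520 non-control probes, of which 21737 had a name that marks them as mouse non-coding RNA probes. The 2050 probes described here were chosen by name alone: after the prefix Mm_ncRNA and its 2 digits, 19687 of the non-coding probes gave a sequence accession and these 2050 (9.43% of the non-coding probes, 2.55% of all probes) gave only numbers. Both spots of 567 of these probes were well above background in all 3 arrays of at least 1 group, and these were tested. The filter left out the other 1483.

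Long non-coding RNAs are transcripts that are not translated into protein. Some act in the nucleus on chromatin, splicing or the transcription of neighbouring genes, others act in the cytoplasm on mRNA stability, and some are hosts of small RNAs. Many are present at low copy number and are restricted to few cell types or tissues.

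RNA came from 3 mouse mammary cancer lines, E-Wnt and M-Wnt (tissue given as mammary tumor) and metM-Wnt (tissue given as liver metastasis), each a single line, with 3 arrays per line and medium. Control medium held 2.2 µM folic acid with fetal bovine serum, and withdrawal medium held 0 µM with dialyzed serum, each for 72 h. Serum and folic acid differ at once between the media, and their effects cannot be told apart. Folate carries the one-carbon units used for nucleotide synthesis and methylation. Each array compared the Cy5-labelled sample (red) with Cy3-labelled RNA of NIH3T3 mouse fibroblasts (green), the reference common to all 18 arrays, and the dyes were not swapped. All levels below are log2 red over green after loess normalisation. Loess centres each array near 0 across the range of brightness. A level of 0 is thus the typical ratio of that array and does not mean equal raw brightness in sample and reference. The files paired no gene symbols with probes, and the epithelial and mesenchymal state of the lines was not checked here. Per the design text the replicates are biological, without details on how the cultures were kept apart.

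The mean red signal per array, before background correction, was 4129 to 6649 in E-Wnt, 4213 to 5170 in M-Wnt control, 1964 to 3722 in M-Wnt withdrawal, 3268 to 3502 in metM-Wnt control and 2260 to 2837 in metM-Wnt withdrawal. No non-control spot was saturated in red. E-Wnt withdrawal replicate 3 stood apart from its group: the SD of its deviations from the group mean over all tested probes was 0.38, against 0.10 to 0.25 on the other 17 arrays. The arrays lay on 5 slides, and the metM-Wnt arrays shared no slide with the other lines.

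All 2050 names had the same form, a prefix of 50 or 60 followed by a number of 5 or 6 digits and a last number. No letter occurred after the prefix, so the names held no gene symbol, interval or database accession. There were 998 probes with prefix 50 and 1052 with prefix 60. They carried 1104 distinct numbers, and 946 of these numbers (85.7%) had 1 probe of each prefix, 52 had only a prefix 50 probe and 106 only a prefix 60 probe. Of the numbers, 273 had 5 digits and 831 had 6, from 11354 to 161115. The last numbers ran from 1 to 952. Within the 946 pairs they differed by a median of 12, by at most 10 in 395 pairs and by more than 100 in 150 pairs. What the prefix and the numbers stand for is not given in the sources used here, and the sequences of these probes were not analysed here.

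On every array these probes were detected less often than the probes of the array as a whole. A probe counts as detected on an array when both of its spots are well above background in red. Between 17.3% and 31.2% of the 2050 probes (355 to 640) were detected per array, with a median of 26.0%, against 40.9% to 53.7% of all probes. The non-coding probes with an accession were in the same range, 18% to 32.6%. In the NIH3T3 reference, read in green, 36.0% to 49.5% of the 2050 were detected, against 60.9% to 69.8% of all probes. The non-coding probes with an accession had 38.9% to 53.1% in green.

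By group, the mean share detected was 27.6% ± 3.47 in E-Wnt control and 27.9% ± 1.56 in E-Wnt withdrawal (SD, n = 3). It was 26.2% ± 1.04 in M-Wnt control and 25.7% ± 3.43 in M-Wnt withdrawal. It was 23.9% ± 1.45 in metM-Wnt control and 18.7% ± 1.58 in metM-Wnt withdrawal. The 3 metM-Wnt withdrawal arrays (17.3% to 20.4%) lay below all 15 others (21.9% to 31.2%), while E-Wnt and M-Wnt arrays overlapped. No test was run, because 3 arrays against 3 cannot give an exact permutation p below 0.10. Over all probes the metM-Wnt withdrawal arrays were also lowest (40.9% to 42.8%), and their red signal was among the lowest. The part of red signal in these shares was not tested.

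**Figure D1:**
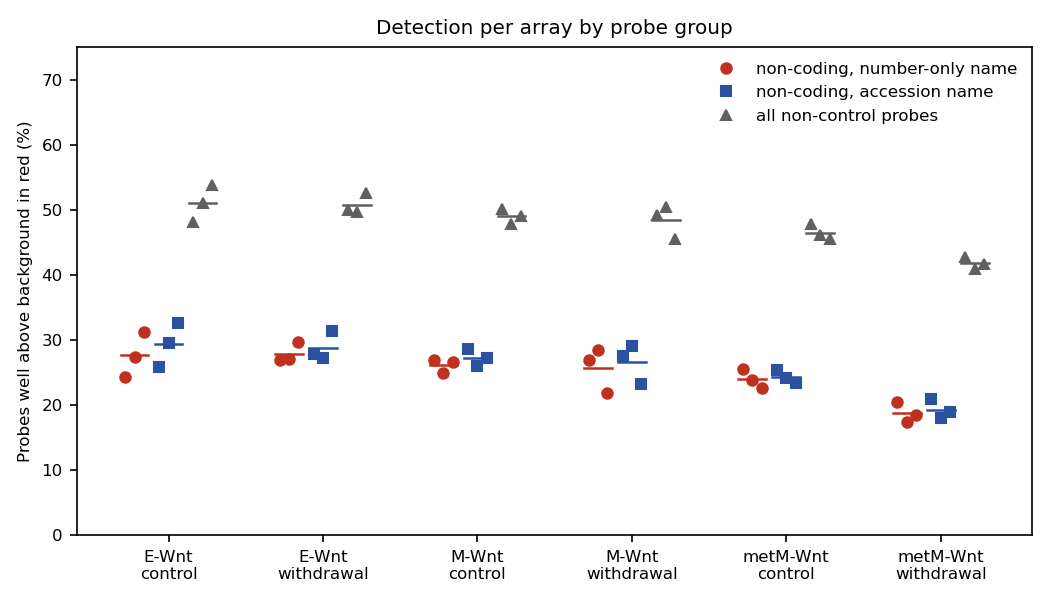
Share of probes well above background in the red channel (per cent, y axis) on each of the 18 arrays, by group (x axis). Points are arrays and short lines are group means. The probes with number-only names (red) lie between 17.3% and 31.2%, close to the non-coding probes with an accession (blue) and below all probes (grey).

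Most of the 2050 were detected nowhere, and a smaller number everywhere. On no array were both spots of 1281 probes (62.5%) detected, against 40.7% of all probes. On all 18 arrays 295 probes (14.4%) were detected, against 37.2% of all probes. In between, 49 probes were detected on all 3 arrays of exactly 1 group, 223 of 2 to 5 groups, and 202 on some array but on all 3 of no group. The single-group probes were 12 in E-Wnt control, 15 in E-Wnt withdrawal, 13 in M-Wnt control, 7 in M-Wnt withdrawal, 2 in metM-Wnt control and 0 in metM-Wnt withdrawal. In the comparison with the reference, 68 probes were detected in green on all 18 arrays and in red on none, and no probe showed the reverse. Over all probes, too, more were detected in green (60.9% to 69.8% per array) than in red (40.9% to 53.7%). The same patterns were not counted over all probes.

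For 7 probes, chosen after their values were seen, detection was complete in both media of 1 or 2 lines and no spot was well above background in the remaining line or lines. Mm_ncRNA50_44535_157 and Mm_ncRNA60_149992_285 were detected in E-Wnt only. Mm_ncRNA50_106956_488, Mm_ncRNA50_129194_367, Mm_ncRNA60_129531_92 and Mm_ncRNA60_130915_600 were detected in M-Wnt and metM-Wnt and not in E-Wnt. Mm_ncRNA50_84594_187 was detected in E-Wnt and M-Wnt and not in metM-Wnt. No probe was detected in this strict sense in M-Wnt only or in metM-Wnt only. These patterns were not counted over all probes, and lack of detection does not show that a transcript is absent. In control medium the log2 difference of M-Wnt against E-Wnt was only -0.66 for Mm_ncRNA50_44535_157. Its partner, at -0.77, did not show the pattern. For the 4 probes not detected in E-Wnt the difference was 1.11 to 3.13.

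Detection differed by name type. Per array 11.9% to 23.6% of prefix 50 probes and 22.4% to 38.4% of prefix 60 probes were detected. Since the 2 types of a pair share the number, the pairs allow a direct view: in a group of 3 arrays both probes of 162 pairs were detected, only the prefix 60 probe of 144, only the prefix 50 probe of 29 and neither of 611. Probes with a 5-digit number were detected in 21.3% to 35.5% per array and those with a 6-digit number in 16.1% to 29.9%. The green channel had the same order, with 27.0% to 41.4% for prefix 50 and 44.6% to 57.2% for prefix 60. The order of the prefixes was thus the same in samples and reference.

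The levels of the 567 tested probes had medians close to 0, where loess centres each array. They were taken in all 6 groups, also in groups where a probe was not detected. In metM-Wnt withdrawal 321 of the 567 were detected on all 3 arrays. A level near 0 in a group without detection does not show a signal like that of the reference. The median level was 0.11 in E-Wnt control, 0.12 in E-Wnt withdrawal, 0.17 in M-Wnt control, 0.10 in M-Wnt withdrawal, 0.18 in metM-Wnt control and 0.09 in metM-Wnt withdrawal, against 0.02 to 0.05 over all 41089 tested probes. In all 6 groups 370 probes (65.3%) stayed within 1 log2 unit of 0, against 50.9% of all probes. There were 15 probes at least 1 unit above 0 in all 6 groups and 29 at least 1 unit below. The range over the 6 group means had a median of 0.56 per probe, against 0.67 over all probes. Between the 3 arrays of a group, the median SD was 0.11 to 0.21.

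Signals of different probes also depend on the probe and do not rank transcripts. Mm_ncRNA60_19807_359, Mm_ncRNA60_141230_137, Mm_ncRNA50_141230_141 and Mm_ncRNA50_149633_461 were named for their signal, a mean in red over the 18 arrays of 404622, 66019.5, 36467.6 and 18202.5 scanner units. Mm_ncRNA60_19807_359 read 0.85, 0.99 and 0.76 in E-Wnt control, 0.27, 0.36 and 0.26 in M-Wnt control and 0.43, 0.25 and 0.37 in metM-Wnt control. It was highest in E-Wnt, with no overlap. The difference of M-Wnt against E-Wnt was -0.57 ± 0.13 (SE, limma adjusted p = 0.00219).

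Changes between groups were tested with limma on all 41089 probes, with Benjamini-Hochberg adjustment over all of them and a threshold of 0.05. A probe past it is called. In control medium 173 of the 567 were called between M-Wnt and E-Wnt, 100 higher in M-Wnt (17.6%, background 23.4%) and 73 lower (12.9%, background 22.2%), together 30.5% against a background over all probes of 45.6%. Between metM-Wnt and E-Wnt 188 were called, 109 higher in metM-Wnt (19.2%, background 23.5%) and 79 lower (13.9%, background 20.6%), together 33.2% against 44.1%. Between metM-Wnt and M-Wnt 34 were called, 14 higher in metM-Wnt (2.47%, background 4.94%) and 20 lower (3.53%, background 4.39%), together 6.0% against 9.33%. These 3 comparisons share their control arrays and are not independent of each other. In each, the share was below that of all probes, and the accession-named non-coding probes had 37.2%, 36.5% and 5.74%. With each array centred on its median in place of loess, 39.2% of 148 calls between metM-Wnt and E-Wnt were higher in metM-Wnt, against 58.0% of the 188. Over all probes the share went from 53.2% to 32.5%.

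**Figure D2:**
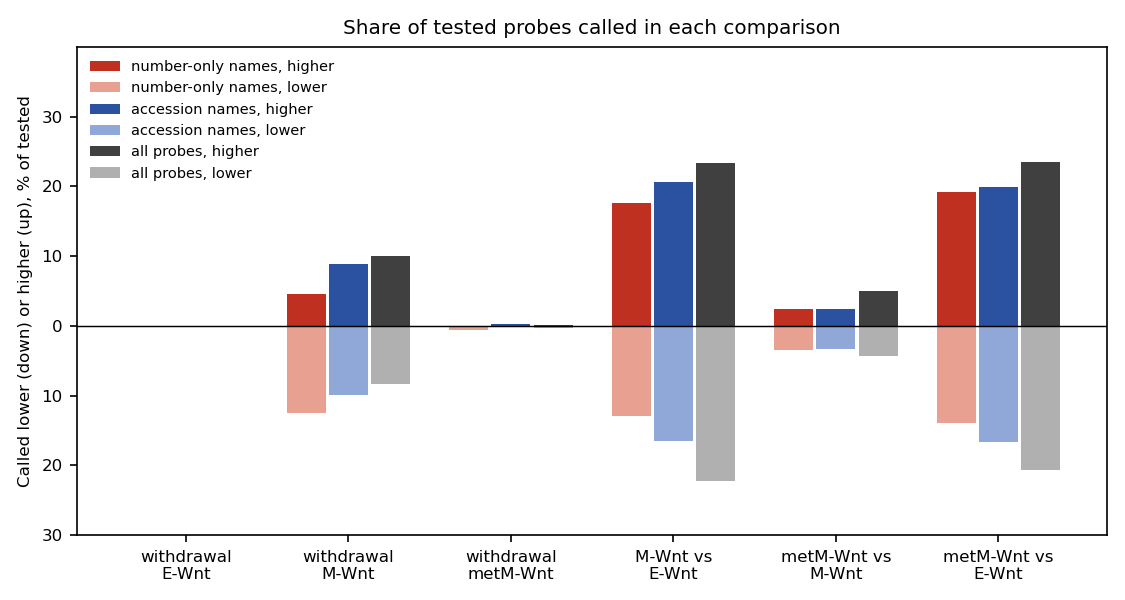
Share of tested probes called in each comparison (per cent, y axis), higher drawn upwards and lower downwards, for number-only names (red, 567 tested), accession names (blue, 5715) and all probes (grey, 41089). In M-Wnt withdrawal 12.5% of the number-only probes were lower and 4.59% higher.

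The largest difference between lines was at number 132482, high in E-Wnt. Mm_ncRNA50_132482_98 read 5.61, 4.79 and 5.59 in E-Wnt control and 5.64, 5.85 and 5.32 in E-Wnt withdrawal. It read 1.88 on all 3 M-Wnt control arrays and 1.98, 1.56 and 1.33 in metM-Wnt control. The E-Wnt arrays lay far above all others, and medium made no difference that passed the test. It was 10.9-fold lower in M-Wnt (log2 difference -3.45 ± 0.24, limma adjusted p = 3.25e-09) and 13.1-fold lower in metM-Wnt (-3.71, limma adjusted p = 1.4e-09). Its partner Mm_ncRNA60_132482_42 read 3.79, 3.04 and 3.73 in E-Wnt control and was not well above background in M-Wnt or metM-Wnt control. That makes it at least 6.63-fold and 6.83-fold lower there (limma adjusted p = 1.90e-09 and 1.57e-09).

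"At least" marks a fold whose dim group was not well above background on any of its 3 arrays. It sets the bright group's mean against that of the dim group in the red channel after between-array scaling. Dim values below the detection floor, the lowest red level of any detected probe on the array, were raised to that floor. Without dye swaps such a bound is open to dye bias. Among the calls above, 31 of 173, 40 of 188 and 7 of 34 had 1 such group, and a further 2 between metM-Wnt and E-Wnt had 2.

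The opposite pattern, dim in E-Wnt and bright in the other lines, was clearest at number 130915. Mm_ncRNA60_130915_600 read -0.35, -0.38 and -0.44 in E-Wnt control, where it was not well above background. It read 2.79, 2.63 and 2.78 in M-Wnt control and 2.32, 2.76 and 2.27 in metM-Wnt control. Probes were named for calls whose groups do not overlap, so that is no support for them. It was at least 7.59-fold higher in M-Wnt and at least 5.95-fold higher in metM-Wnt than in E-Wnt (limma adjusted p = 1.66e-11 and 6.54e-11). Its partner Mm_ncRNA50_130915_605 was at least 6.88-fold and 4.82-fold higher.

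Number 129194 behaved alike in both media. Mm_ncRNA60_129194_360 read -1.99, -1.53 and -2.21 in E-Wnt control, not well above background, against 1.23, 1.26 and 0.91 in M-Wnt control and 0.83, 1.78 and 1.43 in metM-Wnt control. It was at least 6.15-fold higher in M-Wnt and 6.99-fold higher in metM-Wnt (limma adjusted p = 7.50e-08 and 3.57e-08). The NIH3T3 reference carried signal at this probe on all 3 arrays of every group. Withdrawal changed neither of its probes past the threshold in any line.

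Other probes higher in M-Wnt than in E-Wnt were Mm_ncRNA60_43970_428 (at least 5.71-fold), Mm_ncRNA60_129531_92 (at least 5.53-fold), Mm_ncRNA60_48685_311 (4.16-fold) and Mm_ncRNA60_86196_788 (3.72-fold). For Mm_ncRNA60_48685_311 the E-Wnt control arrays read -0.47, -0.25 and -0.22 and the M-Wnt control arrays 1.69, 1.70 and 1.86. Mm_ncRNA60_129531_92 read -1.20, -1.11 and -1.33 in E-Wnt control and 1.55, 1.65 and 1.77 in M-Wnt control. Mm_ncRNA50_129531_96, whose last number is 4 away, read -0.18, -0.29 and -0.48 and then 0.57, 0.67 and 0.81. Both were called and both were dim in E-Wnt, so the differences are bounds, at least 5.53-fold and at least 1.6-fold.

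Lower in M-Wnt than in E-Wnt, beside number 132482, were Mm_ncRNA60_130818_79 (4.25-fold), Mm_ncRNA60_108846_300 (3.69-fold), Mm_ncRNA60_140093_208 (2.77-fold), Mm_ncRNA60_141230_137 (2.77-fold) and Mm_ncRNA60_149729_197 (2.63-fold). The call of Mm_ncRNA60_130818_79 was lost with slide as a fixed block (log2 difference -1.0 in place of -2.09, limma adjusted p = 0.370). Its 3 E-Wnt withdrawal arrays read 2.04, 2.0 and -0.24, the last being the array that stood apart. Mm_ncRNA60_141230_137 read 1.48, 1.66 and 1.26 in E-Wnt control and 0.02, 0.12 and -0.15 in M-Wnt control. Its partner Mm_ncRNA50_141230_141 read 1.5, 1.67 and 1.29 and then 0.13, 0.24 and -0.06.

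Number 84594 was lowest in metM-Wnt. Mm_ncRNA60_84594_262 read 0.51, -0.45 and 0.01 in E-Wnt control, -0.82, -0.48 and -0.14 in M-Wnt control and -2.65, -2.41 and -2.75 in metM-Wnt control, where 1 of 3 arrays detected it. It was 4.35-fold lower than in M-Wnt (log2 difference -2.12 ± 0.25, limma adjusted p = 5.55e-05) and 6.17-fold lower than in E-Wnt. Its partner Mm_ncRNA50_84594_187 was detected on no metM-Wnt array and was at least 1.66-fold lower than in M-Wnt (limma adjusted p = 0.00470). Because metM-Wnt arrays shared no slide with the other lines, slide and line cannot be told apart by a fixed block.

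Further probes separated metM-Wnt from one other line. Mm_ncRNA60_108846_300 was lowest in M-Wnt control (-2.01, -2.10 and -2.16), intermediate in metM-Wnt (-0.98, -0.94 and -0.87) and highest in E-Wnt (-0.28, -0.30 and -0.05), and was 2.23-fold higher in metM-Wnt than in M-Wnt. Mm_ncRNA60_141821_267 (2.05-fold), Mm_ncRNA60_149640_419 (1.88-fold), Mm_ncRNA60_132189_15 (1.85-fold) and Mm_ncRNA60_85916_144 (1.56-fold) were also higher. Lower in metM-Wnt than in M-Wnt were Mm_ncRNA60_150250_80 (1.76-fold), Mm_ncRNA60_129531_92 (1.72-fold), Mm_ncRNA60_13987_214 (1.68-fold), Mm_ncRNA60_107204_558 (1.59-fold) and Mm_ncRNA60_120357_60 (1.53-fold). The partner probe was not called for numbers 149640, 132189, 85916, 150250 and 129531 (limma adjusted p = 0.0509, 0.495, 0.474, 0.0632 and 0.0828). That of 132189 had the opposite sign (log2 difference -0.14). The partners of 13987 and 107204 were called, and those of 108846 and 120357 were too dim to test. Mm_ncRNA60_149640_419 lost its call without any 1 of 5 of the 6 arrays compared, and Mm_ncRNA60_150250_80 without M-Wnt control replicate 3. Median centring ended the calls of Mm_ncRNA60_149640_419, Mm_ncRNA60_132189_15, Mm_ncRNA60_85916_144, Mm_ncRNA60_107204_558 and Mm_ncRNA60_120357_60. Against E-Wnt, Mm_ncRNA50_129657_191 was 4.38-fold higher in metM-Wnt, and Mm_ncRNA60_120357_60 (3.49-fold), Mm_ncRNA60_130818_79 (3.18-fold), Mm_ncRNA50_130081_92 (3.14-fold) and Mm_ncRNA50_43529_146 (2.77-fold) were lower. Leaving out 1 array took no call from these 5.

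**Figure D3:**
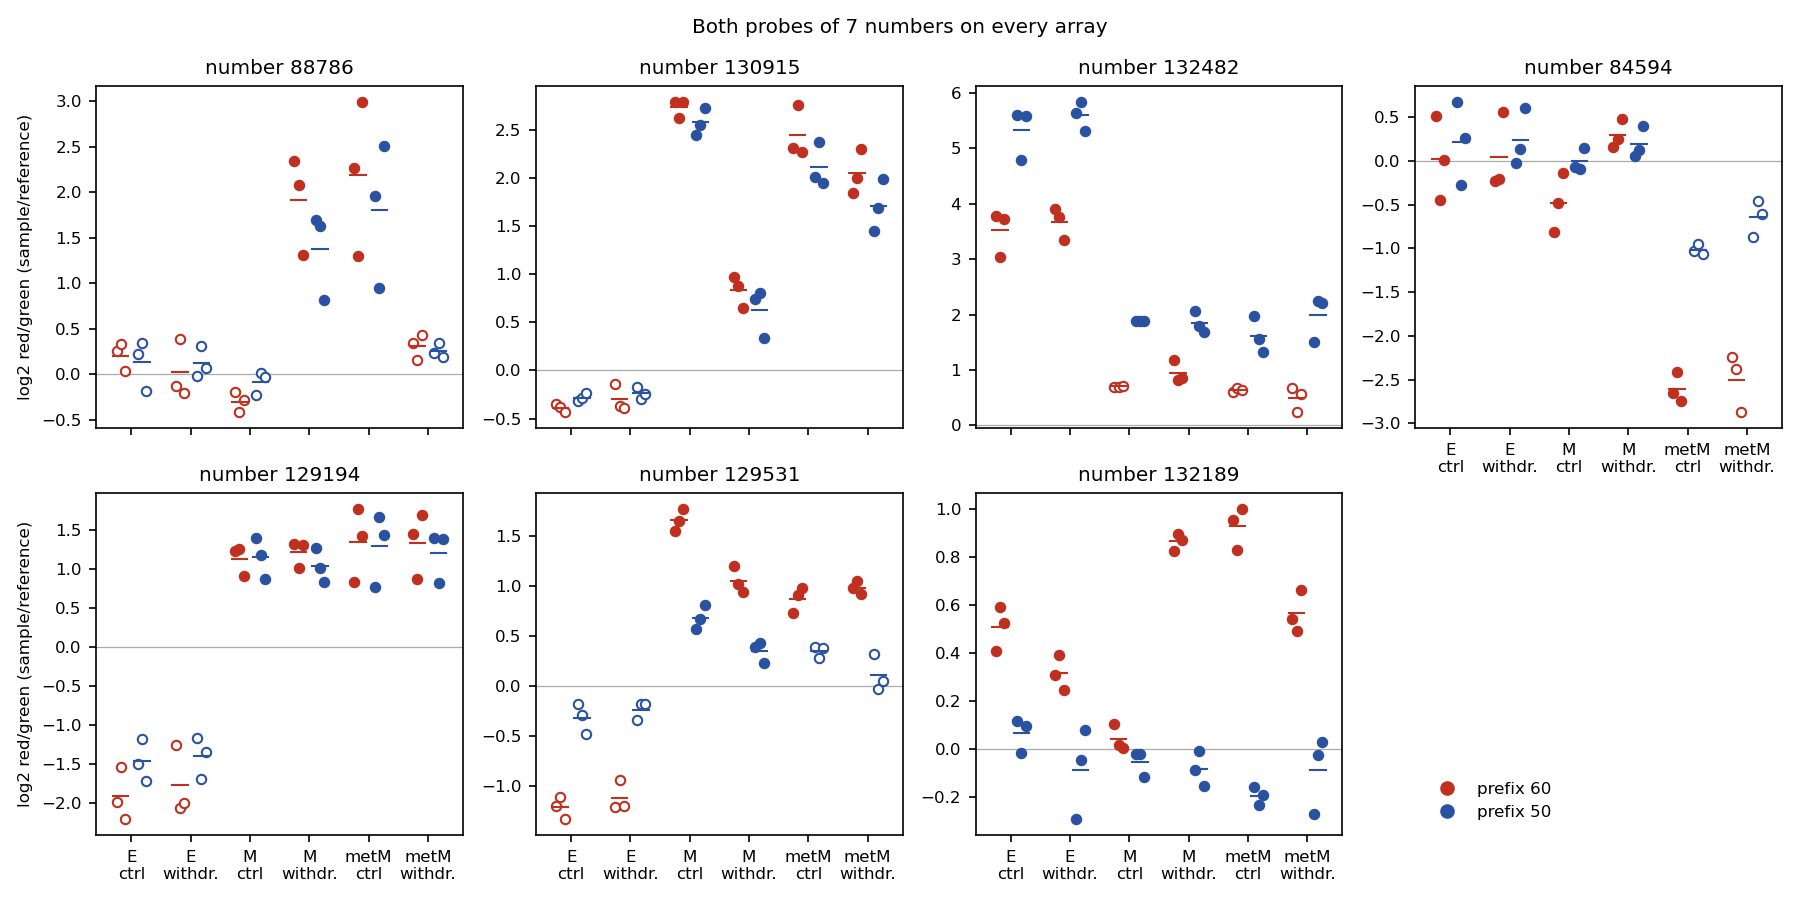
Level of both probes of 7 numbers on each of the 18 arrays (log2 red over green, y axis) by line and medium (x axis, ctrl for control, withdr. for withdrawal). Each point is 1 array, lines are group means, and open points mark groups in which the probe was detected on no array. Number 88786 is bright in M-Wnt withdrawal and metM-Wnt control only, 130915 is dim in E-Wnt and lower in M-Wnt withdrawal than in M-Wnt control, 84594 is lowest in metM-Wnt, and the probes of 132189 differ in pattern.

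Folic acid withdrawal in E-Wnt changed 0 of the 567 past the threshold in limma (background 0.0389%, of which 0.00487% higher and 0.0341% lower), and 38 (6.70%) had an unadjusted p below 0.05, against 8.01% of all probes. Without E-Wnt withdrawal replicate 3, the array that stood apart, 2 were called (0.353%, against 0.387% of all probes).

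In M-Wnt withdrawal changed 97 of the 567 (17.1%, background 18.4%), of which 26 rose (4.59%, background 10.0%) and 71 fell (12.5%, background 8.39%). Of the accession-named non-coding probes 8.87% rose and 9.92% fell. The median difference over the 567 was -0.01, against 0.04 over all probes, and 10 calls (1.76% of those tested) were at least 2-fold, against 2.46% over all probes. In 87 of the 97 both groups had a detecting array. Median centring centres each array on the median of all its usable spots, tested or not. With it the median difference over the 41089 tested probes moved from 0.04 to -0.25, and over the 567 from -0.01 to -0.12. The split among members leaned to falls under these scalings: calls that rose were 26.8% with loess, 10.8% of 65 with median centring, 20.5% of 88 with Agilent's processed signals, 21.6% of 88 in red alone and 16.3% of 98 in the deposited ratio table. Over all probes the same shares were 54.4%, 7.91%, 46.8%, 38.6% and 37.6%.

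Fitting only the M-Wnt arrays gave 195 calls (34.4%, against 36.5% of all probes), 89 that rose and 106 that fell, a more even split. The count depended on single arrays and on slide, for members as for the whole array. It was 52 without M-Wnt control replicate 3, 62 without control replicate 2, 60 without withdrawal replicate 2 and 63 without withdrawal replicate 3, where 9.72%, 10.2%, 11.0% and 11.1% of all probes were called. Slide as a fixed block gave 33 calls (4.93% of all probes), and the 1 slide that held both groups (control replicate 3 and the 3 withdrawal arrays) gave 65 (13.9% of all probes), 28 that rose and 37 that fell. Levels in M-Wnt also moved towards 0, and the red signal was lower after withdrawal. Of the 71 that fell 63 had a control level above 0, and 54 lay nearer to 0 after withdrawal. Of the 26 that rose 20 had a control level below 0, and 15 lay nearer to 0 after withdrawal. Over all probes, 2900 of the 3448 that fell and 3257 of the 4113 that rose had such control levels. Nearer to 0 after withdrawal were 2544 of the 3448 and 2823 of the 4113. Of the 567 tested, 380 (67.0%) lay nearer to 0 after withdrawal in M-Wnt, against 66.4% of all probes, 390 (68.8%) did in metM-Wnt, against 61.4%, and 239 (42.2%) did in E-Wnt, against 46.3%. The part of red signal in these calls was not tested.

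The largest fall was at number 130915, the number that also separated M-Wnt from E-Wnt. Mm_ncRNA50_130915_605 went from 2.44, 2.55 and 2.73 in M-Wnt control to 0.75, 0.80 and 0.33 after withdrawal, a 3.86-fold fall (log2 difference -1.95 ± 0.15, limma adjusted p = 1.4e-06). Mm_ncRNA60_130915_600 went from 2.79, 2.63 and 2.78 to 0.98, 0.88 and 0.65 (-1.90 ± 0.14, limma adjusted p = 1.08e-06). Within the shared slide the difference for Mm_ncRNA50_130915_605 was -2.11 (limma adjusted p = 0.0124). In metM-Wnt Mm_ncRNA60_130915_600 read 2.32, 2.76 and 2.27 in control medium and 1.84, 2.0 and 2.30 after withdrawal, a difference that did not pass the test (-0.40, limma adjusted p = 0.234).

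Also lower in M-Wnt after withdrawal were Mm_ncRNA50_141204_182 (2.29-fold), Mm_ncRNA50_13987_491 (2.17-fold), Mm_ncRNA50_43419_905 (1.96-fold), Mm_ncRNA60_139988_158 (1.96-fold) and Mm_ncRNA50_52452_310 (1.92-fold). Mm_ncRNA50_141204_182 went from 2.01, 1.86 and 1.71 to 0.69, 0.85 and 0.44. Mm_ncRNA50_13987_491 went from 0.81, 0.69 and 0.91 to -0.18, -0.32 and -0.44. The partner probe of each of these 5 also fell, with log2 differences from -1.05 to -0.56. These 5 calls held in the shared slide and without any 1 array.

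Beside number 88786, described below with metM-Wnt, the rise was largest at Mm_ncRNA60_141821_267, whose number has no second probe. It went from -2.09, -2.22 and -2.29 to -0.77, -1.04 and -0.83, a 2.50-fold rise to levels still below 0 (log2 difference 1.32 ± 0.11, limma adjusted p = 1.93e-06). Mm_ncRNA60_149633_440 went from -2.40, -2.82 and -3.06 to -1.68, -1.66 and -1.60 (2.17-fold), and its partner Mm_ncRNA50_149633_461 from -2.32, -2.75 and -3.11 to -1.77, -1.64 and -1.53. With median centring the difference of Mm_ncRNA60_149633_440 was 0.35 (limma adjusted p = 0.413). Mm_ncRNA60_141257_139 (1.91-fold) and Mm_ncRNA60_139574_119 (1.81-fold) also rose. They lost the call without any 1 of 3 and any 1 of 5 of the 6 arrays, and the partner of each was too dim to test.

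Number 132189 showed a change in 1 of its 2 probes. Mm_ncRNA60_132189_15 went from 0.10, 0.01 and 0.00 in M-Wnt control to 0.83, 0.90 and 0.87 after withdrawal (1.77-fold, log2 difference 0.82 ± 0.09, limma adjusted p = 2.30e-05). Mm_ncRNA50_132189_282 read -0.02, -0.02 and -0.12 and then -0.09, -0.01 and -0.16 (-0.03 ± 0.11, limma adjusted p = 0.868). Both were well above background on every array, and their last numbers, 15 and 282, lie far apart. With median centring the first difference was 0.41 (limma adjusted p = 0.214).

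Withdrawal in metM-Wnt changed 3 of the 567 (0.529%, background 0.404%), all of which fell (0.529%, background 0.241%), and 80 (14.1%) had an unadjusted p below 0.05, against 13.2% of all probes. They were both probes of number 88786 and Mm_ncRNA50_144416_22. The last went from 0.77, 0.62 and 0.91 to 0.35, 0.24 and 0.11 (1.44-fold, log2 difference -0.53 ± 0.10, limma adjusted p = 0.0416). All 3 calls were lost with slide as a fixed block, within the 1 shared slide, with median centring, and without metM-Wnt withdrawal replicate 2 or 3. Without metM-Wnt control replicate 1 there was 1 call, a fall, and without control replicate 3 there were 2, 1 of them higher; Mm_ncRNA60_88786_72 and Mm_ncRNA50_144416_22 were among the calls lost in both.

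Number 88786 moved in opposite directions in the 2 lines. Mm_ncRNA60_88786_72 read -0.19, -0.42 and -0.29 in M-Wnt control and 2.34, 2.08 and 1.32 after withdrawal. In metM-Wnt it read 2.27, 1.30 and 3.0 in control medium and 0.35, 0.16 and 0.43 after withdrawal. It was well above background on every array of M-Wnt withdrawal and metM-Wnt control and on no array of the other 4 groups, and it was not detected in the reference on any array.

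After withdrawal Mm_ncRNA60_88786_72 was at least 2.32-fold higher in M-Wnt (limma adjusted p = 0.000236) and at least 2.56-fold lower in metM-Wnt (limma adjusted p = 0.0235). The fitted log2 differences, 2.21 ± 0.32 and -1.88 ± 0.32, rest on groups below detection and measure no fold. Mm_ncRNA50_88786_3 went from -0.23, 0.01 and -0.03 to 1.70, 1.63 and 0.82 in M-Wnt and from 1.96, 0.95 and 2.51 to 0.24, 0.34 and 0.19 in metM-Wnt (limma adjusted p = 0.00319 and 0.0388). The M-Wnt rise of Mm_ncRNA60_88786_72 held without any 1 array and within the shared slide (2.20, limma adjusted p = 0.0273). The metM-Wnt fall did not pass without control replicate 1 or 3 or withdrawal replicate 2 or 3 (limma adjusted p = 0.0531 to 0.112), nor within its shared slide (-1.85, limma adjusted p = 0.781). In control medium it was at least 2.88-fold higher in metM-Wnt than in M-Wnt (limma adjusted p = 0.000107).

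The withdrawal response itself was compared between lines by an interaction term. M-Wnt differed from E-Wnt in 43 of the 567 (7.58%, background 6.86%), with 9 more positive (1.59%, background 3.93%) and 34 more negative (6.0%, background 2.93%) in M-Wnt. metM-Wnt differed from M-Wnt in 23 (4.06%, background 5.09%), with 13 more positive (2.29%, background 2.16%) and 10 more negative (1.76%, background 2.93%) in metM-Wnt. Without E-Wnt withdrawal replicate 3 the first count was 92 (16.2%), of which 40 were more positive, and 12.6% of all probes were called. It was 27 without E-Wnt control replicate 2, 28 without E-Wnt withdrawal replicate 2, 27 and 26 when M-Wnt control replicate 2 and 3 were dropped, and 24 when M-Wnt withdrawal replicate 2 was. Of all probes 4.81%, 6.29%, 3.95%, 4.0% and 4.19% were called in these 5 fits. The second count was 14 (2.47%) without M-Wnt control replicate 3, against 2.73% of all probes. With median centring the counts were 15 and 6, with 6.67% and 66.7% more positive in place of 20.9% and 56.5%. Over all probes 2.79% and 0.611% were then called, 13.8% and 36.3% of them more positive. Within shared slides the counts were 3 and 4 (0.529% and 0.705%), against 0.757% and 0.628% of all probes.

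The 2 probes of a number moved together more often than not. Both probes of 162 numbers were tested. In the comparison of M-Wnt with E-Wnt 140 of the 162 pairs (86.4%) had the same sign, and in M-Wnt withdrawal 129 (79.6%) did. At least 1 probe was called in 69 and 43 pairs, both in 49 and 25, and both with opposite signs in 0 and 0. Across pairs Pearson's r of the 2 differences was 0.93 and 0.87, given as a description only, since the probes share arrays and the number. The 1589 pairs of accession-named non-coding probes gave the same sign in 86.4% and 82.0%. Between metM-Wnt and M-Wnt in control medium, 129 of the 162 pairs (79.6%) had the same sign. At least 1 probe was called there in 22 pairs and both in 5 (22.7%), against 45.5% for the accession-named pairs. The same share was 71.0% against 73.2% between M-Wnt and E-Wnt and 71.8% against 66.6% between metM-Wnt and E-Wnt. In M-Wnt withdrawal it was 58.1% against 53.5%. Pairs whose last numbers lay within 10 of each other had the same sign between M-Wnt and E-Wnt in 93.3% of 75, against 80.5% of 87 pairs further apart. In M-Wnt withdrawal the order was the other way, 77.3% against 81.6%, and neither difference was tested.

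**Figure D4:**
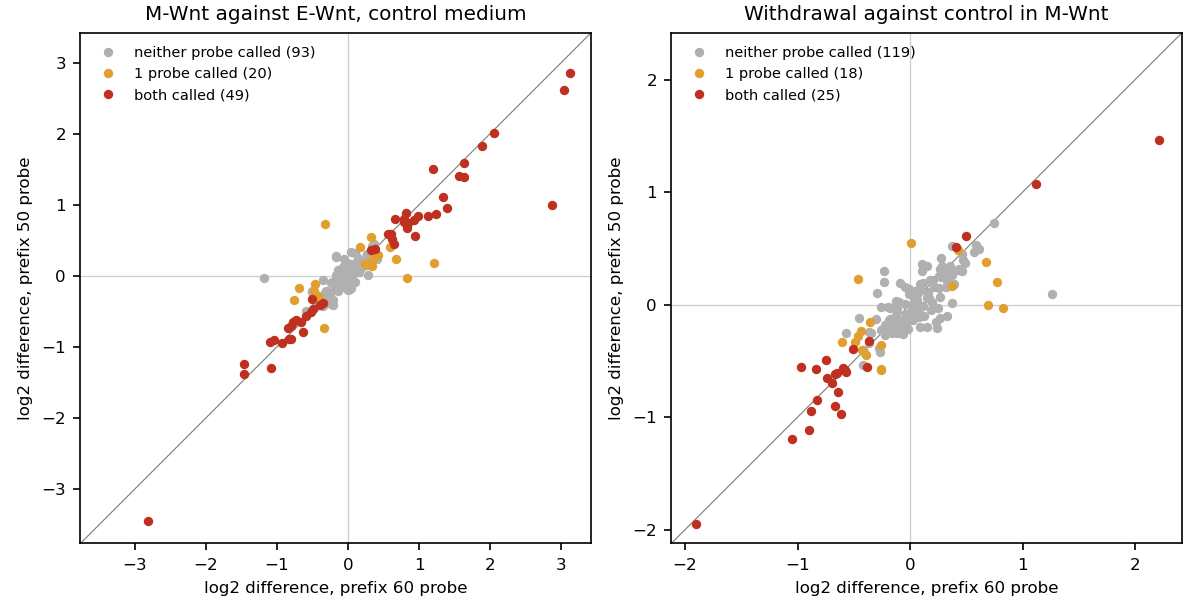
Log2 difference of the prefix 60 probe (x axis) and of the prefix 50 probe (y axis) for the 162 numbers with both probes tested, for M-Wnt against E-Wnt (left) and for M-Wnt withdrawal (right). Red points are pairs with both probes called (49 and 25), orange with 1 called (20 and 18), and all red points lie in the same-sign quadrants.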

How the data were processed

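The authors deposited 1 scanner output per array, with the intensity of each spot and of its background in red and in green; Agilent Feature Extraction 10.7.3.1 made it, per the submitters' processing notes. The deposited value table holds log10 ratios that match those of the scanner files within 0.005, with a median of 0 on every array. Each array had 165888 spots, 4848 of them controls, and 2 spots per probe.

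Background was corrected with normexp (offset 50), ratios were normalised by loess within each array with control and outlier spots at weight 0, and spots of a probe were averaged in limma 3.58.1 (R 4.3.3, statmod 1.5.0). Probes with both spots well above background in red on all 3 arrays of a group were kept (41109, less 20 without a usable spot on some array, leaving 41089). A model of 6 group means was fitted with lmFit and eBayes (12 residual and 3.96 prior degrees of freedom), with Benjamini-Hochberg adjustment over all tested probes. The fit was also run on simulated data with independent noise and no slide effect, which cannot show how slide affects the calls. The number of arrays limits the precision. Figures were drawn with matplotlib 3.10.9.

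The members, lists and alternatives were chosen with earlier results of these data known. Named probes were, per comparison, up to 6 called members each way by size whose groups do not overlap, 1 per number (for differences in response up to 3, with no such criterion), the 2 brightest of each prefix, and any matching a list of known non-coding RNA names, which 0 matched. Replicate numbers were not used as pairs. Same-numbered arrays had correlations of deviations from -0.65 to 0.55, and different-numbered arrays from -0.57 to 0.70. Deviations from a mean of 3 arrays are tied to each other, so these ranges can neither show nor exclude pairing. Alternatives covered scaling, starting signal, filters, offset, variance trend, slide, replicate number and each array left out.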

Additional observations from a re-analysis of the deposited data

Results flagged for a closer look

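The withdrawal response of the following probes differed between lines by the interaction term in limma, with Benjamini-Hochberg adjustment over all tested probes. Values are log2 differences of responses. M-Wnt minus E-Wnt was 2.40 for Mm_ncRNA60_88786_72, 1.49 for Mm_ncRNA60_130245_195, 1.17 for Mm_ncRNA60_141821_267 and 1.01 for Mm_ncRNA60_132189_15. It was -1.99 for Mm_ncRNA50_130915_605, -1.38 for Mm_ncRNA50_141204_182, -1.26 for Mm_ncRNA50_43419_905, -1.08 for Mm_ncRNA50_13987_491, -1.0 for Mm_ncRNA60_139988_158 and -0.93 for Mm_ncRNA50_52452_310.

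The response of metM-Wnt minus that of M-Wnt was 1.55 for Mm_ncRNA50_130915_605, 1.24 for Mm_ncRNA50_13987_491, 1.13 for Mm_ncRNA50_141204_182 and 0.91 for Mm_ncRNA60_139988_158. It was -4.09 for Mm_ncRNA60_88786_72, -1.41 for Mm_ncRNA60_149633_440, -1.19 for Mm_ncRNA60_132189_15 and -1.05 for Mm_ncRNA60_141821_267.

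Mm_ncRNA50_130915_605 and Mm_ncRNA60_139988_158 were not well above background on any E-Wnt array, and Mm_ncRNA60_88786_72 only in M-Wnt withdrawal and metM-Wnt control was, so these sizes are those of the fit and not bounds. Mm_ncRNA60_130245_195 read 0.63, 0.14 and 1.17 in E-Wnt control and -0.24, -0.05 and -0.48 in E-Wnt withdrawal, against 0.15, 0.41 and 0.02 and then 0.80, 0.69 and 0.84 in M-Wnt. The difference for Mm_ncRNA60_149633_440 lost its call in 8 of the 12 fits that left out 1 array. Under a fixed slide term, and also inside the shared slides, the M-Wnt minus E-Wnt calls of Mm_ncRNA60_88786_72, Mm_ncRNA60_130245_195, Mm_ncRNA50_141204_182 and Mm_ncRNA50_43419_905 were lost, as were the metM-Wnt minus M-Wnt calls of Mm_ncRNA50_130915_605 and Mm_ncRNA50_141204_182. The metM-Wnt minus M-Wnt call of Mm_ncRNA60_88786_72 was lost inside the shared slides (limma adjusted p = 0.0907) and that of Mm_ncRNA60_149633_440 under the fixed slide term, and in the red channel alone that of Mm_ncRNA50_13987_491 was lost (limma adjusted p = 0.108). Median centring ended the first kind of call for Mm_ncRNA60_130245_195 and Mm_ncRNA60_141821_267 and the second kind for Mm_ncRNA50_141204_182, Mm_ncRNA60_132189_15 and Mm_ncRNA60_149633_440. The M-Wnt minus E-Wnt calls of Mm_ncRNA60_132189_15, Mm_ncRNA50_13987_491, Mm_ncRNA60_139988_158 and Mm_ncRNA50_52452_310 were not followed through these settings. Nor were the metM-Wnt minus M-Wnt calls of Mm_ncRNA60_139988_158 and Mm_ncRNA60_141821_267.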

How the results depend on the processing

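Counts of members called are given, with the share of all tested probes called in brackets where a count other than a range is above 10. Slide as a random block (within-slide correlation -0.14) gave 2 calls for withdrawal in E-Wnt, 13 (1.62%) in metM-Wnt and 75 (16.3%) for metM-Wnt against M-Wnt, and 75 (14.6%) and 41 (8.80%) for the 2 differences in response (M-Wnt minus E-Wnt, then metM-Wnt minus M-Wnt). Slide as a fixed block gave 33 (4.93%) for withdrawal in M-Wnt, 0 in metM-Wnt, and 4 and 5 for the differences; only the slides that hold both groups gave 0 in metM-Wnt, and 3 and 4. With the filter for all 18 arrays, which left 295 members, the counts were 53 (21.6%) for withdrawal in M-Wnt, 0 in metM-Wnt, 101 (49.2%) for M-Wnt against E-Wnt, 17 (11.3%) for metM-Wnt against M-Wnt, 103 (47.7%) for metM-Wnt against E-Wnt, and 23 (7.83%) and 15 (6.42%) for the differences. Fitting only the groups compared gave 195 (36.5%) for withdrawal in M-Wnt, 0 in metM-Wnt and 49 (11.0%) for the second difference. Median centring gave 0 for withdrawal in metM-Wnt, 11 (2.05%) for metM-Wnt against M-Wnt, and 15 (2.79%) and 6 for the differences. For withdrawal in metM-Wnt, Agilent's processed signals gave 7, and the red channel alone and the deposited ratio table gave 6 each. The filter left fewer members to test; for the other settings the cause was not tested.

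With the replicate number as a block, which is not known to pair these samples, withdrawal gave 0 calls in E-Wnt, 88 (14.6%) in M-Wnt and 0 in metM-Wnt, and the line comparisons gave 167 (43.6%), 30 (7.48%) and 180 (41.9%). Leaving out each array in turn gave 0 to 2 calls for withdrawal in E-Wnt, 52 to 83 in M-Wnt, 0 to 3 in metM-Wnt, 154 to 175 for M-Wnt against E-Wnt, 23 to 29 for metM-Wnt against M-Wnt, 158 to 201 for metM-Wnt against E-Wnt, and 24 to 92 and 14 to 23 for the differences. Probes positive and significant over background, in place of well above it, on all 3 arrays numbered 804, 809, 780, 746, 720 and 575 in the order E-Wnt, M-Wnt, metM-Wnt, control before withdrawal, against 473, 475, 476, 439, 429 and 321. Of the 62 results on named probes, 38 kept direction and call in all settings run and 0 turned direction. Slide as a fixed block could not be fitted for the comparisons with metM-Wnt in control medium, and a fit within 1 slide could not be made for any comparison of lines.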
